A study of Mus musculus with 18 samples.

Results

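Chromatin accessibility was described around the 9 mouse genes Ciita, H2-Aa, H2-Ab1, H2-Eb1, Cd74, H2-DMa, H2-DMb1, H2-Oa and H2-Ob, which encode the regulator and the protein machinery of major histocompatibility complex (MHC) class II antigen presentation. ATAC-seq, which counts where a transposase can insert sequencing adapters into open DNA, had been run on bone marrow derived macrophages (BMDMs) of 3 Il10-/- mice, 12-week-old males on the C57BL/6J background. All groups therefore lacked the Il10 gene, and all cells were matured for 6 days in medium conditioned by L929 cells. There were 6 groups of 3 libraries, and the series describes the samples as matched between groups. BMDMs were left without additions (unstimulated), or were given 500 nM (+)-JQ1, an inhibitor of the BET bromodomain proteins, or 10 ng/mL recombinant IL-10, for 12 hours, and each of these conditions was then continued for 4 hours either with 50 ng/mL bacterial lipopolysaccharide (LPS) or without it. The study's methods also name a vehicle control before LPS, with untreated, unstimulated BMDMs as a further control. The sample titles call the LPS group untreated, so whether it received vehicle is not settled here. The part of vehicle in differences against unstimulated was not tested. The members were the peaks of the pooled peak table that overlapped a gene body extended by 10 kb on each side (mm9, GENCODE M1 annotation), and there were 89 of them among 194284 peaks. Of these, 31 were classed as promoter and 58 as distal in the deposited annotation, 14 lay over an annotated 5′ end of a member gene, and 15 fell in the windows of more than 1 member. The gene windows held 22 peaks for Ciita, 17 for H2-Aa, 15 for H2-Ob, 11 for H2-Eb1, 10 for H2-Ab1, 9 each for H2-DMa, H2-DMb1 and H2-Oa, and 8 for Cd74. Peak widths ran from 501 to 12537 bases with a median of 1080 bases.

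MHC class II molecules present peptides from engulfed material to CD4+ T cells. H2-Aa and H2-Ab1 encode the α and β chains of the I-A molecule and H2-Eb1 the β chain of I-E, while Cd74 encodes the invariant chain that guides new class II molecules to endosomes and fills their groove. H2-DMa and H2-DMb1 form the H2-DM heterodimer, which exchanges the remaining fragment of the invariant chain for peptide, and H2-Oa and H2-Ob form H2-DO, which restrains H2-DM. Ciita encodes the class II transactivator, which does not itself bind DNA but is recruited to the X and Y boxes of class II promoters by the RFX, CREB and NF-Y factors. Ciita has several promoters, of which the one farthest downstream is known to respond to interferon-γ through a GAS element and an IRF site. Macrophages carry low class II levels until interferon-γ or related signals raise them, and IL-10 is known to lower class II on their surface.

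All 89 member peaks passed the filter on low counts. A normalized count below is the deposited count of a peak divided by the TMM-adjusted library size and multiplied by the mean adjusted library size of the 18 libraries, which was 18785971. The members' mean normalized counts ran from 8.5 to 1143.8 with a median of 52.1, against 32.9 over all peaks, and 16 members averaged under 20. A peak was called different when edgeR's quasi-likelihood test gave a Benjamini-Hochberg adjusted p under 0.05 over all 194230 tested peaks with an absolute log2 fold-change over 0.5. In bulk libraries, more cells with an open region and more opening per cell cannot be told apart. Peaks are named by the distance of their centre from the nearest member 5′ end. Member counts by unadjusted p or by DESeq2 are given without a share over all peaks.

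Library totals ran from 12020526 counts in unstimulated replicate 1 to 25908198 in LPS + (+)-JQ1 replicate 3. The strongest 5% of peaks held 29.0 to 35.2% of the counts of the unstimulated libraries, below every library of the (+)-JQ1, IL-10, LPS and LPS + (+)-JQ1 groups (35.6 to 42.2%), whereas the LPS + IL-10 libraries (31.9 to 34.4%) overlapped them. The part of this difference in the results against unstimulated was not tested. Unstimulated replicate 1 was the lowest in both respects, so results against this group are also given without it where its removal changed a call. Lane 5 carried the replicate 1 libraries and the replicate 2 libraries that had no LPS, and lane 6 carried the rest, so differences within each lane are given beside the main results. Each lane held a single library of some groups, so these differences rest on few libraries. Macrophage markers were open in all groups: peaks over the 5′ ends of 6 of 8 marker genes summed to between 1360 (unstimulated) and 2240 ((+)-JQ1) normalized counts per kb, and Csf1r and Cd68 had peaks within 1 kb of the 5′ end but none over it. B cells and dendritic cells also express class II genes. B cell markers summed to 105 to 132 per kb over 4 of 6 genes with no peak over the 5′ end of Ms4a1, and dendritic cell markers to 612 to 768 over 6 of 6 genes, of which Zbtb46 alone gave 428 to 610. T cell markers summed to 125 to 144 over 2 of 6 genes. Neutrophil markers summed to 104 in unstimulated, 232 in LPS and 291 in LPS + IL-10 libraries over 3 of 5 genes, of which Camp alone gave 52.8, 173 and 217. The part of other cells in the results was not tested.

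Because class II promoters are recognized by their Y box and X box, stretches of mm9 that hold these letters upstream of member 5′ ends are shown first, read 5′ to 3′ on the strand of the gene. The capitals mark the Y box core, searched as ATTGG, and, where it was found 15 to 45 bases before it, the X1 site, searched as AGCAAC.
H2-Aa (chr17:34424787-34424886, minus strand): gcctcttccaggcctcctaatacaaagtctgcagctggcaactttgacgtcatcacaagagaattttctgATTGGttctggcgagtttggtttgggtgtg
H2-Ab1 (chr17:34400057-34400156, plus strand): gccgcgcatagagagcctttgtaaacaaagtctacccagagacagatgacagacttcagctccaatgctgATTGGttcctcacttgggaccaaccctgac
H2-Eb1 (chr17:34442683-34442782, plus strand): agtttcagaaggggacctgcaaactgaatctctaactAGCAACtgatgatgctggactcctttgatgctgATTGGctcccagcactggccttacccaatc
H2-Oa (chr17:34229211-34229310, plus strand): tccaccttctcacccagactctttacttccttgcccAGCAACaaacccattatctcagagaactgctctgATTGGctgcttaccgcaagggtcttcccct
H2-Ob (chr17:34375723-34375822, plus strand): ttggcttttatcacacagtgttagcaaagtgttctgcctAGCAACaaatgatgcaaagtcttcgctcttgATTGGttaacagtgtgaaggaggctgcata
The Y box core began 44 bases before the first annotated 5′ end of H2-Aa, 27 before that of H2-Ab1, 75 before that of H2-Eb1, 4 before that of H2-Oa and 55 before that of H2-Ob. The longer form CTGATTGG, which contains the core, was present in H2-Aa, H2-Ab1, H2-Eb1 and H2-Oa and not in H2-Ob. The X1 site lay 33 bases before the core in H2-Eb1, 34 in H2-Oa and 31 in H2-Ob. On either strand, windows from 250 bases before to 50 after an annotated 5′ end held the core in 35.7% of 45993 cases, the longer form in 4.22% and the X1 site in 14.1%. The spaced pair, counted on the sense strand alone, was in 0.194% of them. These letters were not found on the sense strand of the same windows of H2-DMa and H2-DMb1, and in the windows of Ciita the core occurred on the opposite strand alone. Sequence at Cd74 was not analysed here.

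A further 3 stretches are shown because they lie in peaks described below. In the first, from upstream of the last annotated Ciita 5′ end, the capitals mark a GAS element (TTCNNNGAA) and an ISRE-like pair (GAAANNGAA), which began 164 and 73 bases before that 5′ end. In the others the capitals mark a spaced X1 site and Y box core inside the H2-Ab1 peak 1.4 kb upstream and the Ciita peak at +18.3 kb.
Ciita, last 5′ end (chr16:10489697-10489827, plus strand): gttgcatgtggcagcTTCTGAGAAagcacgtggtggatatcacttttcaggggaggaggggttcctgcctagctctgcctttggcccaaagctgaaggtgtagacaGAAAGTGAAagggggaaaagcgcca
H2-Ab1, 1.4 kb upstream (chr17:34398605-34398704, minus strand): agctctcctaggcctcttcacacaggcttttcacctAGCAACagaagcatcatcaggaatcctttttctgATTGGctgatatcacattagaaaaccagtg
Ciita, +18.3 kb (chr16:10497966-10498065, minus strand): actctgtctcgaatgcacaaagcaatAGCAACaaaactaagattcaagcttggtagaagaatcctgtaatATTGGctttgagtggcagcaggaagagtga
The H2-Ab1 stretch held the X1 site 34 bases before a core in its longer form, which is the spacing seen at H2-Oa, and the Ciita stretch held it 44 bases before a core that lacked the longer form. Counted on either strand, the spaced pair was present in 1.53% of all whole peaks and in 8 of the member peaks outside the Cd74 window, where sequence was not analysed here. GAS letters occurred in 7.59% and ISRE letters in 8.68% of the 5′ windows. These are matches of letters and not measured binding.

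Summed over its peaks and divided by their length, accessibility of the member windows is given first as a level (normalized counts per kb of peak). Without stimulation it ran from 46.2 ± 3.15 (SD, n = 3) for Ciita through 53.3 for Cd74, 57.5 for H2-Eb1 and 59.9 for H2-Oa to 95.0 for H2-DMa. After LPS the H2-Ob window averaged 122 ± 4.37 (63.0 ± 5.41 unstimulated) and the H2-Oa window 100 ± 0.558 (59.9 ± 5.33). The 3 LPS libraries gave 106.7, 103.7 and 99.6 for H2-Aa against 59.08, 58.92 and 67.5 without stimulation, so the groups did not overlap. For Cd74 the 3 libraries gave 78.42, 83.16 and 79.93 with LPS and 50.39, 53.47 and 55.97 without. The LPS means of the other windows were 1.64 times the unstimulated mean for H2-Ab1, 1.69 for H2-Eb1, 1.24 for H2-DMa, 1.17 for H2-DMb1 and 1.15 for Ciita. In the plot of window levels, the LPS libraries of H2-Ob, H2-Aa, H2-Ab1 and Cd74 lie above the LPS + (+)-JQ1 libraries, and those of H2-Oa lie below them (99.86 to 101.0 against 133.7 to 142.8). Much of the H2-Oa count lay in a strong peak at +11.4 kb, whose nearest annotated 5′ end was that of Brd2. Of the 9 peaks in this window, it alone was called higher with LPS + (+)-JQ1 than with LPS, and it also rose with LPS. Windows share peaks where genes are neighbours, so these levels are not independent of each other.

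**Figure D1:**
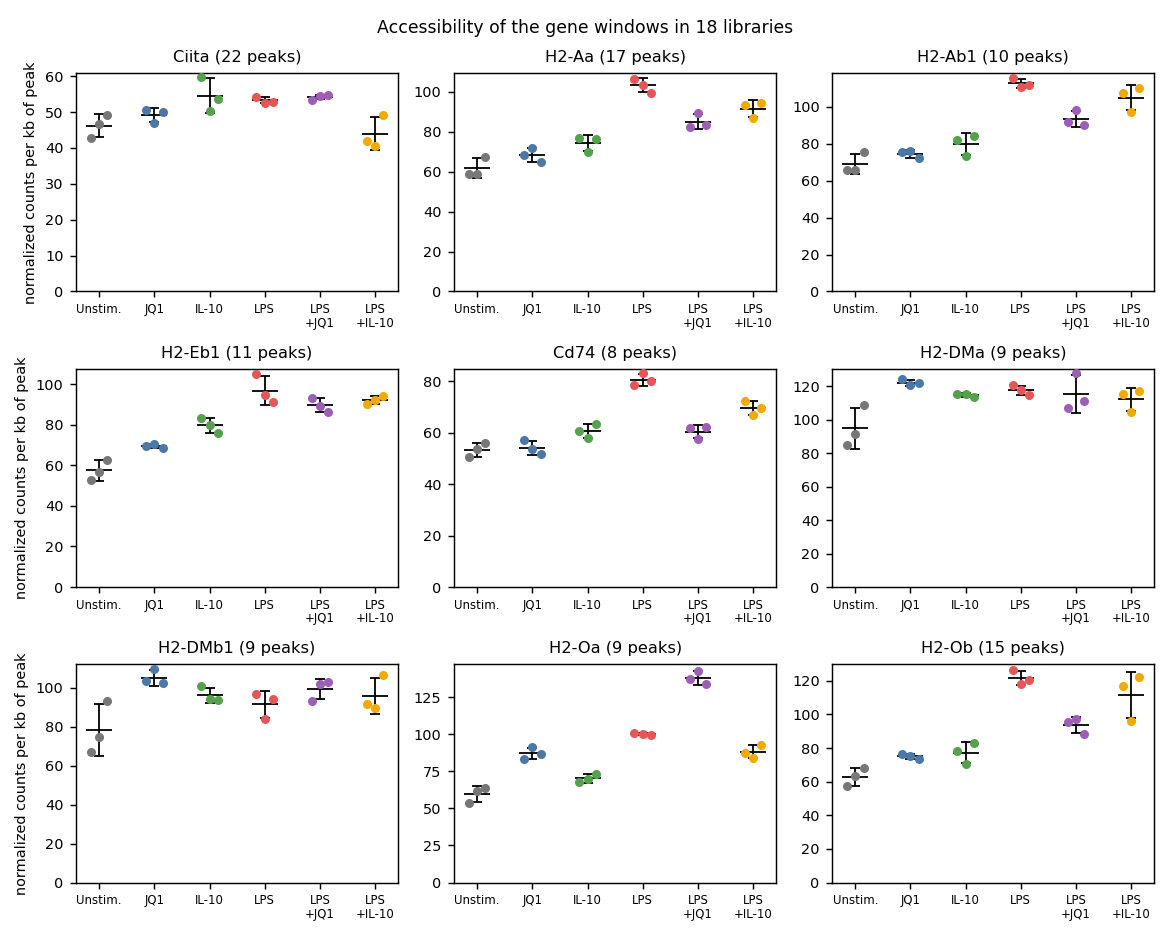
Accessibility of the 9 gene windows in each of the 18 libraries, as normalized counts per kb of peak (vertical axis) in the 6 groups (horizontal axis), with points for libraries, horizontal lines for the mean of 3 and error bars for the SD. H2-Ob rises from a mean of 63.0 in unstimulated to 122 in LPS libraries and is 93.7 with LPS + (+)-JQ1, whereas Ciita stays between 44.0 and 54.6 in all groups.

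LPS was followed by wider opening across most of the class II windows. Of the 89 member peaks 26 (29.2%) were higher with LPS than unstimulated, where 11.7% of all tested peaks were, and 0 were lower, where 10.2% of all were. With edgeR's unadjusted p under 0.05 there were 35 higher and 1 lower, and DESeq2 called 26 and 0. The median log2 fold-change was 0.35 for the members and -0.03 for all peaks. Called peaks were spread over the genes, with 8 of 15 for H2-Ob, 7 of 17 for H2-Aa, 4 of 10 for H2-Ab1, 4 of 11 for H2-Eb1, 4 of 9 for H2-Oa, 4 of 8 for Cd74, 2 of 22 for Ciita and 1 of 9 for H2-DMb1. H2-DMa had 0 calls of 9 in both edgeR and DESeq2, with 2 peaks at an unadjusted p under 0.05. Of the 14 peaks over member 5′ ends, 6 were called. All 26 called peaks were higher within each lane, which follows by itself where the groups did not overlap, as at most of them. The median log2 differences were 1.0 in lane 5 and 0.70 in lane 6. With total counts as the scaling, which moved the median of all peaks in this comparison to -0.26, 16 members were higher and 1 lower. With offsets fitted to the mean count of each peak by loess, 22 were higher.

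**Figure D2:**
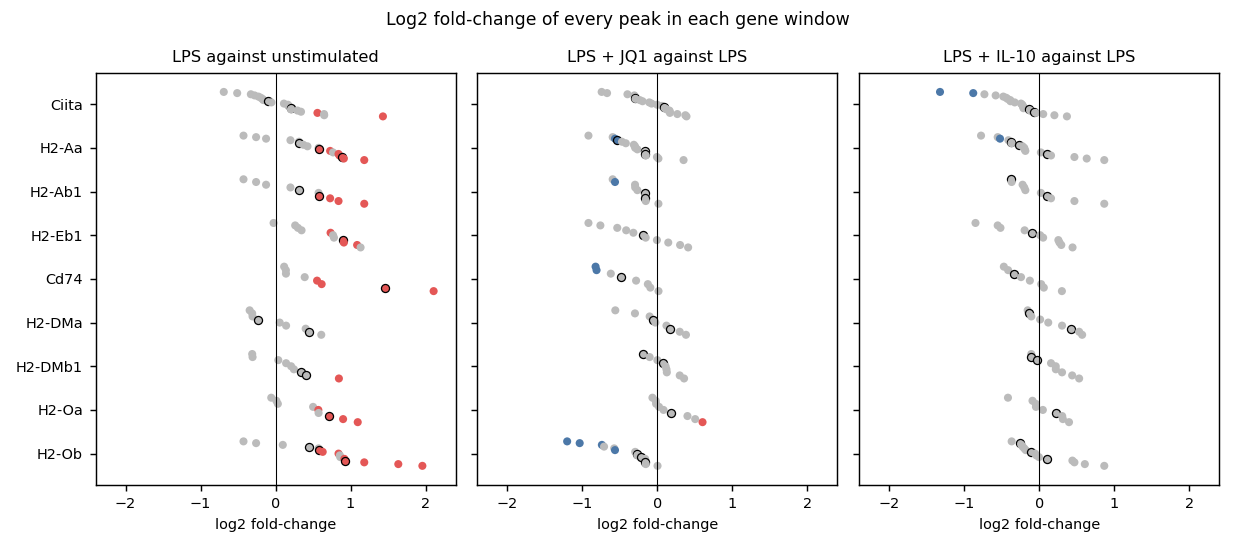
Log2 fold-change of each of the member peaks (horizontal axis) in each gene window (vertical axis), for LPS against unstimulated, LPS + (+)-JQ1 against LPS and LPS + IL-10 against LPS. Red and blue points are peaks called higher and lower, grey ones are not called, a black rim marks a peak over a member 5′ end, and a peak in several windows is drawn in each. With LPS 26 peaks are called, all above 0.

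Cd74, the invariant chain gene, held the peak with the largest LPS fold-change among members. This peak, 1.8 kb upstream of the Cd74 5′ end in intergenic sequence, gave 26.4, 23.7 and 18.5 normalized counts without stimulation and 88.9, 108.8 and 97.6 with LPS, and the groups were far apart (log2 fold-change 2.11 ± 0.25 SE, edgeR adjusted p = 1e-11, 1.75 in lane 5 and 2.36 in lane 6). The peak over the Cd74 5′ end itself rose from 66.6, 78.5 and 108.1 to 265.0, 218.6 and 218.8 (1.46 ± 0.17, edgeR adjusted p = 5.1e-12, 1.85 and 1.00 within lanes). 2 other Cd74 peaks were called, one 8.6 kb upstream (0.61 ± 0.21) whose libraries overlapped between the groups, and one at +2.3 kb (0.55 ± 0.14) that was lost without unstimulated replicate 1, with total counts and with loess offsets.

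Among the classical chain genes, 3 of the 4 peaks over 5′ ends rose. The H2-Eb1 peak, which also covers the 5′ end of the antisense transcript Gm20513, gave 197.4, 236.4 and 222.4 without stimulation and 445.3, 395.9 and 389.3 with LPS (0.91 ± 0.14, edgeR adjusted p = 7.7e-08, 1.04 and 0.81 within lanes). The H2-Aa 5′ end peak gave 96.8, 102.2 and 99.9 against 174.3, 204.5 and 175.0 (0.89 ± 0.17, edgeR adjusted p = 1.3e-05, 0.80 and 0.91 within lanes). At the H2-Ab1 5′ end the values were 196.1, 241.5 and 249.1 against 365.1, 322.7 and 344.5 (0.58 ± 0.14), a call that was lost without unstimulated replicate 1, with total counts and with loess offsets. The peak at +4.8 kb, over later H2-Ab1 5′ ends, gave 62.86, 34.06 and 32.94 against 50.92, 58.17 and 50.49 and was not called. The larger change at H2-Ab1 lay 1.4 kb upstream, in the peak that holds the spaced X1 site and Y box printed above. It gave 118.2, 92.9 and 132.8 without stimulation and 290.0, 254.3 and 234.5 with LPS (1.18 ± 0.16, edgeR adjusted p = 1.5e-09, 1.45 and 0.87 within lanes). Between H2-Ob and H2-Ab1, a peak 5.1 kb upstream of H2-Ab1 rose from a mean of 201.3 to 362.0, and the peaks 3.8 and 8.5 kb upstream of H2-Aa from 80.0 to 144.9 and from 133.4 to 251.7.

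In the windows of the H2-DO genes, peaks rose both at 5′ ends of these genes and away from them, with the largest rise inside H2-Ob. Differences between peaks were not tested. Within H2-Ob, at +10.7 kb and over the 5′ end of the transcript Gm20506, a peak (chr17:34385416-34387768, mm9) gave 101.8, 112.5 and 143.1 without stimulation and 485.9, 447.5 and 462.3 with LPS. This is the smallest adjusted p among the member peaks (log2 fold-change 1.96 ± 0.16, edgeR adjusted p = 6e-20, 2.16 and 1.65 within lanes). The H2-Ob peak at +8.4 kb was weak, with 10.1, 13.4 and 11.3 against 51.8, 31.9 and 24.7 (1.64 ± 0.37), and its call was lost without replicate 1 in all groups. The H2-Ob peak at +0.8 kb, one of the peaks over its 5′ ends, went from 145.8, 123.9 and 143.1 to 283.9, 242.1 and 256.9 (0.93 ± 0.16), while the peak that holds the H2-Ob sequence shown above (0.2 kb upstream) had 45.3, 44.4 and 39.1 against 72.5, 57.2 and 44.9 and was not called. H2-Oa rose at its 5′ end from 104.3, 113.5 and 112.2 to 194.2, 174.5 and 173.9 (0.72 ± 0.16, edgeR adjusted p = 0.00023), and this call was lost with total counts. Between H2-Oa and Brd2, a gene for one of the BET proteins that (+)-JQ1 binds, a strong peak at +11.4 kb from H2-Oa gave 440.0, 634.8 and 701.0 without stimulation and 1063, 1156 and 1105 with LPS (0.90 ± 0.14). Brd2 was the gene with the nearest annotated 5′ end to that peak, and the call was lost with loess offsets.

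The Ciita 5′ ends did not pass the test with LPS. The peak at its first 5′ end gave 86.8, 110.4 and 124.6 normalized counts unstimulated and 86.3, 91.0 and 127.9 with LPS, and the peak at +8.4 kb, which covers the other 5′ ends and the GAS and ISRE letters shown above, gave 215.0, 209.5 and 246.0 against 263.2, 244.9 and 263.7. Both pairs of groups overlapped or lay close together. Inside the gene, the intronic peak at +18.3 kb (chr16:10497422-10499706, mm9) rose from 74.2, 58.8 and 48.4 to 196.8, 149.2 and 138.0 (1.43 ± 0.20, edgeR adjusted p = 2.5e-09, 1.55 and 1.53 within lanes), and the peak at +42.6 kb from a mean of 76.6 to 112.9 (0.56 ± 0.19). Neither of these lies over an annotated 5′ end. At the H2-DM genes, the 5′ end peak of H2-DMa 2.5 kb upstream gave 819.7, 912.5 and 1053 against 1275, 1302 and 1214, below the fold-change limit at 0.44 ± 0.13, and the H2-DMb1 5′ end peak gave 130.8, 199.2 and 191.5 against 253.7, 208.3 and 199.7 (0.34 ± 0.15, edgeR adjusted p = 0.094). The 1 called H2-DMb1 peak, 2.6 kb upstream, was at 28.5 and 51.5 on average and differed by 1.23 in lane 5 and 0.24 in lane 6.

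**Figure D3:**
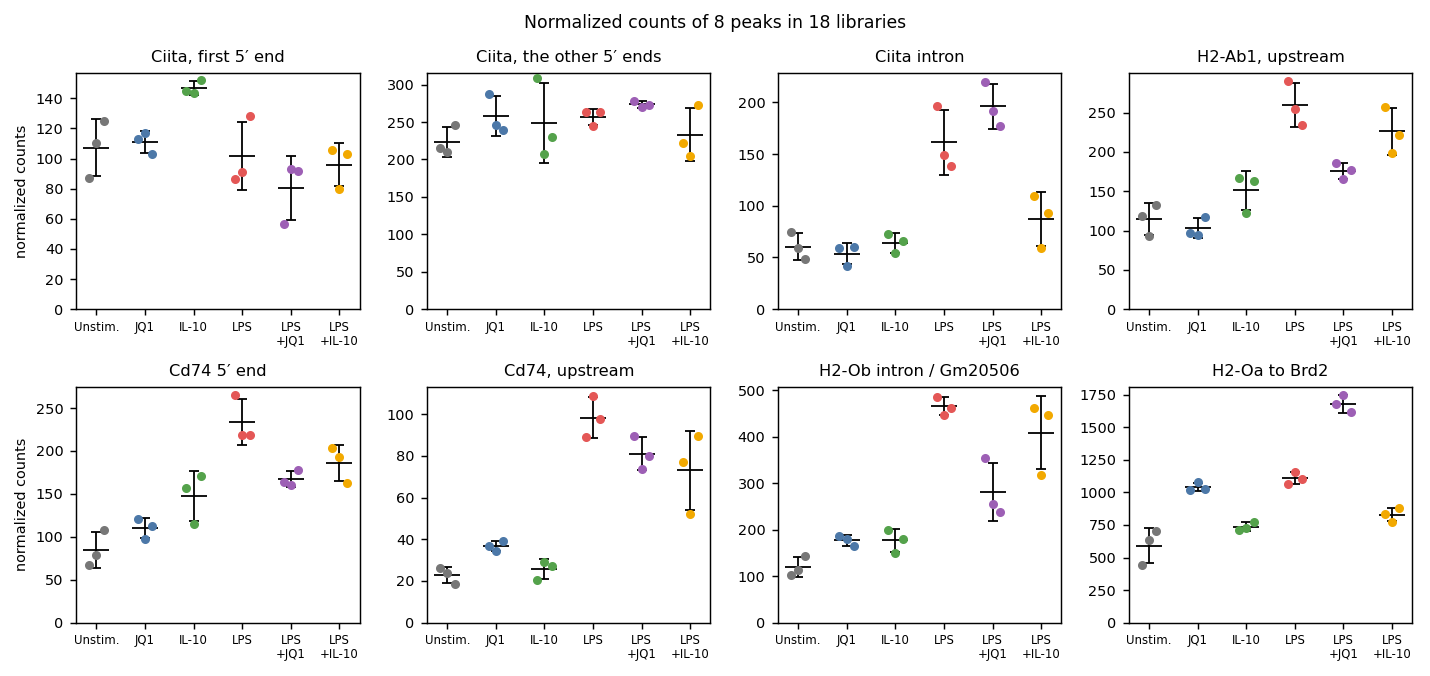
Normalized counts of 8 member peaks in each library (points), with the mean of 3 (horizontal lines) and the SD (error bars), for the 6 groups. In the panel of the H2-Ob +10.7-kb peak over Gm20506 the LPS libraries sit between 447.5 and 485.9 and the LPS + (+)-JQ1 libraries between 237.5 and 353.3, and in that of the Ciita +18.3-kb intronic peak the LPS + IL-10 libraries (58.8 to 109.7) sit below both.

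Without LPS, (+)-JQ1 changed few member peaks. Of 89 peaks, 3 (3.37%) were higher and 1 (1.12%) was lower than unstimulated, where 7.85% and 3.15% of all peaks were called. Scaling moved this split, to 1 higher and 7 lower with total counts, 0 and 1 with loess offsets, and 7 and 1 with DESeq2 size factors. The largest rise was at the H2-Oa +11.4-kb peak toward Brd2, from 440.0, 634.8 and 701.0 to 1021, 1080 and 1027 (0.81 ± 0.14, edgeR adjusted p = 3e-06, 0.99 in lane 5 and 0.55 in lane 6), lost with loess offsets. The peak at +7.9 kb from H2-DMa, over the 5′ end of H2-DMb2, a second gene for a β chain of H2-DM, had a mean of 476.2 against 299.9 (0.66 ± 0.15), with 0.95 in lane 5 and 0.19 in lane 6, and H2-Ob +10.7 kb had 176.7 against 119.1 (0.56 ± 0.17). Both calls were lost with total counts, with loess offsets and without replicate 2 in all groups, and that of H2-Ob also without unstimulated replicate 1 or 2 and without (+)-JQ1 replicate 1. The peak that fell spans 12537 bases from the 3′ part of Cd74 into Tcof1, with 533.1, 473.8 and 402.5 counts unstimulated and 344.0, 311.8 and 304.4 with (+)-JQ1 (-0.55 ± 0.14), and was lost without unstimulated replicate 1. The count of calls was 2 without unstimulated replicate 1 and 13 without unstimulated replicate 3, and 2, 1 and 10 when replicates 1, 2 or 3 were left out of all groups.

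IL-10 without LPS raised 7 members (7.87%) and lowered 2 (2.25%), where 5.16% and 3.5% of all peaks were called. With total counts the split was 3 higher and 4 lower, and with loess offsets 3 and 2. At the Cd74 5′ end the libraries gave 157.0, 115.1 and 170.3 against 66.6, 78.5 and 108.1 unstimulated, without overlap (0.80 ± 0.17, edgeR adjusted p = 0.00098, 0.88 and 0.65 within lanes). The peak 8.6 kb upstream of Cd74 had 107.4 on average against 60.7 (0.82 ± 0.20, lost without unstimulated replicate 2), the one 8.5 kb upstream of H2-Aa 229.3 against 133.4 (0.77 ± 0.16), and H2-Eb1 +7.4 kb 236.2 against 154.4 (0.61 ± 0.15). The lowered ones were the H2-Ab1 peak at +4.8 kb, with 24.01, 21.01 and 24.71 against 62.86, 34.06 and 32.94 (-0.87 ± 0.28), and Cd74 +19.6 kb, with 76.66, 58.45 and 63.55 against 96.81, 107.3 and 105.0 (-0.64 ± 0.20). The first call was lost in 8 of the alternatives tried, among them without unstimulated replicate 1 and without any 1 of the IL-10 libraries, and the second in 5, among them without unstimulated replicate 2 and without IL-10 replicate 2 or 3. The Ciita 5′ ends again were not called, with 145.0, 143.4 and 151.8 at the first of them against 86.8, 110.4 and 124.6 (0.44 ± 0.18, edgeR adjusted p = 0.088). Calls numbered 5 without unstimulated replicate 1, 5 without unstimulated replicate 2 and 15 without unstimulated replicate 3, and 5 and 1 when replicates 1 or 2 were left out of all groups.

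When (+)-JQ1 preceded LPS, several member peaks were less accessible than with LPS alone. The same LPS libraries serve here and in LPS against unstimulated, as in each comparison with LPS alone. A peak high in those libraries by chance would look opened by LPS and lowered by a pretreatment, and the part of this was not tested. Of the 89 members 7 (7.87%) were lower, where 3.49% of all peaks were, and 1 (1.12%) was higher, where 1.74% of all were. The median log2 fold-change was -0.16 for members and 0.00 for all peaks. 4 of the 7 lay in the H2-Ob window, 2 in that of H2-Aa, 2 in that of Cd74 and 1 in that of H2-Ab1, the peak 1.4 kb upstream of H2-Ab1 being in 3 of these windows. The 2 in the Cd74 window had not been called higher with LPS. H2-Ob +10.7 kb gave 353.3, 254.3 and 237.5 against 485.9, 447.5 and 462.3 with LPS (-0.74 ± 0.14, edgeR adjusted p = 0.00012, -0.46 and -0.88 within lanes), and these values were still above the unstimulated 101.8 to 143.1. H2-Ob +3.3 kb, which overlaps an H2-Ob exon, gave 49.0, 33.8 and 50.3 against 103.6, 95.7 and 108.8 (-1.20 ± 0.23, edgeR adjusted p = 6.2e-05), a level within the range of the unstimulated libraries (70.4, 60.9 and 32.9). The H2-Ab1 peak 1.4 kb upstream gave 186.0, 165.1 and 177.0 against 290.0, 254.3 and 234.5 (-0.57 ± 0.15, edgeR adjusted p = 0.01, -0.64 and -0.51 within lanes).

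At the H2-Aa 5′ end LPS + (+)-JQ1 libraries gave 92.3, 149.7 and 132.6 against 174.3, 204.5 and 175.0 with LPS (-0.55 ± 0.16, edgeR adjusted p = 0.025), a call that was lost when any 1 of replicates 1, 2 or 3 was left out of all groups, and without LPS replicate 2 or LPS + (+)-JQ1 replicate 1 or 3. The 12537-base peak that runs from Cd74 into Tcof1 gave 369.1, 326.0 and 355.5 against 572.2, 601.4 and 671.0 (-0.81 ± 0.14, edgeR adjusted p = 5e-06), and the peak at +19.6 kb from Cd74 inside Tcof1 63.4, 50.2 and 76.5 against 113.9, 137.0 and 88.6 (-0.83 ± 0.20, lost without LPS replicate 2 and without LPS + (+)-JQ1 replicate 2). The longer of them was also lower with (+)-JQ1 alone. The Cd74 5′ end had 164.4, 159.9 and 177.7 against 265.0, 218.6 and 218.8, with no overlap, and stopped short of the fold-change limit at -0.48 ± 0.16. H2-Ob +8.4 kb passed at an adjusted p of 0.049 in edgeR (-1.04 ± 0.34) and not when replicate number was added as a block, where the adjusted p was 0.05, and was lost in 13 of the alternatives tried. No Ciita peak was called, with 1 at an unadjusted edgeR p under 0.05 and 0 by DESeq2.

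The member that rose with LPS + (+)-JQ1 was again the H2-Oa +11.4-kb peak, which gave 1678, 1749 and 1616 against 1063, 1156 and 1105 with LPS (0.60 ± 0.13, edgeR adjusted p = 0.00092, 0.66 and 0.57 within lanes), lost without replicate 2. The number of member calls for LPS + (+)-JQ1 against LPS fell to 5 without LPS replicate 2 and to 3 without replicate 2 in all groups, and stayed between 6 and 8 with each other library left out.

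IL-10 before LPS gave fewer called member peaks than (+)-JQ1 before LPS, at a share below that of all peaks. The called ones were distal, as were 58 of the 89 members. Of the 89, 3 (3.37%) were lower than with LPS alone, where 4.51% of all peaks were, and 0 were higher, where 4.26% of all were. At an unadjusted edgeR p under 0.05 there were 11 lower and 2 higher, and DESeq2 called 2 and 0. The same unadjusted cutoff gave 12 lower and 4 higher for LPS + (+)-JQ1 against LPS. Without the share of all peaks at that cutoff, these counts do not compare the pretreatments. The Ciita +18.3-kb peak was the clearest of them. Its libraries gave 109.7, 58.8 and 93.2 with LPS + IL-10 against 196.8, 149.2 and 138.0 with LPS, near the unstimulated 74.2, 58.8 and 48.4 (-0.88 ± 0.18, edgeR adjusted p = 0.00024, -0.83 and -0.94 within lanes). Ciita +24.2 kb was weak, with 11.5, 10.9 and 15.5 against 33.7, 18.8 and 44.9 (-1.33 ± 0.35), and was lost without LPS replicate 3. The peak 3.8 kb upstream of H2-Aa had 113.6, 87.1 and 101.8 against 171.8, 135.1 and 127.9 (-0.53 ± 0.18, edgeR adjusted p = 0.044), and this call was lost without LPS replicate 1, without LPS replicate 2, without LPS + IL-10 replicate 2 or 3, with total counts and by DESeq2. Without replicate 1 or without replicate 3 in all groups, 1 call remained in number. The 5′ end peaks of H2-Ab1 (366.4, 347.2 and 391.8 against 365.1, 322.7 and 344.5 with LPS) and H2-Eb1 (398.9, 387.5 and 361.6 against 445.3, 395.9 and 389.3) overlapped between the groups.

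The pretreatments were also compared directly. Of 89 members 4 (4.49%) were higher with LPS + (+)-JQ1 than with LPS + IL-10, where 3.43% of all peaks were, and 4 (4.49%) were lower, where 4.68% of all were, and with loess offsets the split was 4 and 2. The higher ones were 3 in Ciita and the H2-Oa +11.4-kb peak. At Ciita +18.3 kb the LPS + (+)-JQ1 libraries gave 219.2, 191.7 and 177.0 and the LPS + IL-10 libraries 109.7, 58.8 and 93.2 (1.15 ± 0.18, edgeR adjusted p = 1e-06, 0.98 and 1.29 within lanes), without overlap. Ciita +24.2 kb differed by 1.32 ± 0.35 (lost without replicate 1 or without replicate 2 in all groups) and Ciita +15.4 kb by 0.62 ± 0.16 (1.22 in lane 5 and 0.33 in lane 6). H2-Oa +11.4 kb had 1678, 1749 and 1616 against 834.0, 774.9 and 876.8 (1.02 ± 0.13, edgeR adjusted p = 3.7e-09). The lower ones were H2-Ob +3.3 kb (-1.16 ± 0.23), H2-Ob +10.7 kb (-0.56 ± 0.14, libraries overlapping), H2-Eb1 +19.5 kb over the 5′ end of H2-Eb2 (-0.80 ± 0.27, overlapping) and Cd74 +19.6 kb (-0.58 ± 0.20), and the calls of the last 2 were lost in 8 and 10 of the alternatives tried. Calls numbered 5 without LPS + IL-10 replicate 1, 5 without LPS + IL-10 replicate 3, and 5, 5 and 4 when replicates 1, 2 or 3 were left out of all groups.

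Whether the LPS difference itself changed with the pretreatment was tested as an interaction, the LPS difference with the agent minus the LPS difference without it. With (+)-JQ1 3 members (3.37%) had a lower LPS difference, where 3.19% of all peaks did, and 0 a higher one, where 0.649% of all did. At an unadjusted edgeR p under 0.05 there were 16 lower and 1 higher, and DESeq2 called 5 and 0. These were H2-Ob +10.7 kb (-1.30 ± 0.22, edgeR adjusted p = 0.00011), the peak 5.1 kb upstream of H2-Ab1 and the Cd74 5′ end. With IL-10 10 members (11.2%) were lower, where 5.9% of all peaks were, and 0 higher, where 2.01% were. The unadjusted edgeR counts were 26 lower and 5 higher, and DESeq2 called 11 and 0. With total counts, which moved the median of all peaks to 0.31 in this contrast, the IL-10 split became 2 higher and 3 lower. The Cd74 5′ end gave -1.13 ± 0.23 (edgeR adjusted p = 0.00047) with IL-10, from an LPS difference in normalized counts of 84.4 to 234.1 on average without it and of 147.5 to 186.3 with it. Because these interactions include the rise with IL-10 alone, a peak such as H2-Ob +10.7 kb (177.0 with IL-10, 409.2 with LPS + IL-10) could have a lower LPS difference without being called below LPS. The interaction calls and their dependence on single libraries are listed in the closing paragraphs.

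The genes around the class II pathway were described from lists named with earlier results of these data known, as 360 peaks of 23 genes. With LPS 75 (20.8%) were higher and 37 (10.3%) lower than unstimulated, where 11.7% and 10.2% of all tested peaks were. The split was 63 and 69 with total counts and 63 and 39 with loess offsets. The regulators that assemble on the X and Y boxes (Rfx5, Rfxap, Rfxank, Creb1, Nfya, Nfyb, Nfyc) gave 2 higher and 10 lower of 98 peaks, close to or below the shares of all peaks. The interferon-γ route gave 53 higher (37.9%) and 9 lower (6.43%) of 140. In it, the higher peaks were 19 of 24 for Jak2, a kinase of the receptor, 9 of 9 for Irf1, a factor that acts on the last Ciita promoter, and 5 of 5 for Socs1, the feedback inhibitor. The most changed Jak2 peak (chr19:29391747-29393901) rose by 2.93 ± 0.17 on the log2 scale (edgeR adjusted p = 7.1e-29), while 6 of 18 peaks of the receptor gene Ifngr1 fell.

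Relative to LPS alone, LPS + (+)-JQ1 lowered 29 of the 140 interferon-γ route peaks, with 15 at Jak2, 4 at Irf1 and 2 at Socs1, and LPS + IL-10 lowered 28 and raised 6, with 14 lower at Jak2, 6 at Irf1 and 2 at Socs1. Both comparisons share the LPS libraries. At the strongest Jak2 peak called, the fall was -0.62 ± 0.14 with (+)-JQ1 and -0.64 ± 0.14 with IL-10. Over all lists LPS + (+)-JQ1 gave 45 calls against LPS. Of the listed peaks 0.833% were higher and 11.7% lower, where 1.74% and 3.49% of all peaks were. The calls numbered 18 without replicate 2 and 28 without replicate 3 in all groups.

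The processing and transport list differed between the pretreatments mainly at 1 gene. March1 encodes a ubiquitin ligase that removes class II from the cell surface and is known to be induced by IL-10 in myeloid cells. Of its 53 peaks 44 were higher with LPS + IL-10 than with LPS, where 4.26% of all peaks were. The median log2 fold-change of the 53 was 1.57, and 40 to 43 were called with any library or replicate left out. The March1 peak at chr8:68998119-69003468 gave 684.2, 549.6 and 611.8 with LPS + IL-10, 172.6, 228.9 and 200.8 after LPS alone, 154.6, 175.5 and 169.9 unstimulated, and 184.6, 105.6 and 122.4 in LPS + (+)-JQ1 libraries. Without LPS it gave 249.4, 243.9 and 245.4 with IL-10 and 85.15, 85.52 and 79.54 with (+)-JQ1. The LPS + IL-10 libraries stood above all others. LPS + (+)-JQ1 lowered 5 of the 53, where 3.49% of all peaks were lower. The count was 0 without replicate 2 and 1 without replicate 3 in all groups, and 2 to 5 with 1 library left out.

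Cd83, a surface protein that opposes the March1 effect on class II, moved the other way with IL-10. With LPS 12 of 16 Cd83 peaks were higher than unstimulated, where 11.7% of all peaks were. With LPS + IL-10 there were 8 of 16 lower than with LPS, where 4.51% of all peaks were. The peak at chr13:43903997-43907072 gave 351.3, 346.2 and 319.8 with LPS, 64.9, 66.4 and 74.2 with LPS + IL-10 and 91.8, 76.4 and 65.9 unstimulated (LPS + IL-10 against LPS -2.30 ± 0.17, edgeR adjusted p = 2.3e-20). This was the largest fall among the 16, and its LPS + IL-10 libraries were at or near the unstimulated level. LPS + (+)-JQ1 gave 325.9, 196.9 and 187.9 there. The strongest Cd83 peak called lower with LPS + IL-10 (-0.60) averaged 298.6 unstimulated, 580.7 with LPS and 382.9 with LPS + IL-10. Another strong one averaged 408.8, 1143 and 1029 and was not called lower (-0.15). LPS + (+)-JQ1 lowered 3 of the 16 Cd83 peaks against LPS, where 3.49% of all peaks were lower (1 to 5 with 1 replicate or library left out). Ctss, the cathepsin that trims the invariant chain, had 2 of 6 peaks lower with LPS + (+)-JQ1 than with LPS, beside the same 3.49% of all peaks. The stronger of them gave 337.4, 404.0 and 387.6 against 603.3, 717.7 and 881.9 (-0.96 ± 0.14). That peak was also low with (+)-JQ1 alone, at 261.1, 378.9 and 347.6 against 705.3, 675.1 and 713.4 unstimulated. Of the 22 peaks of Lgmn, another endosomal protease, 10 fell and 1 rose with LPS, where 10.2% and 11.7% of all peaks did.

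**Figure D4:**
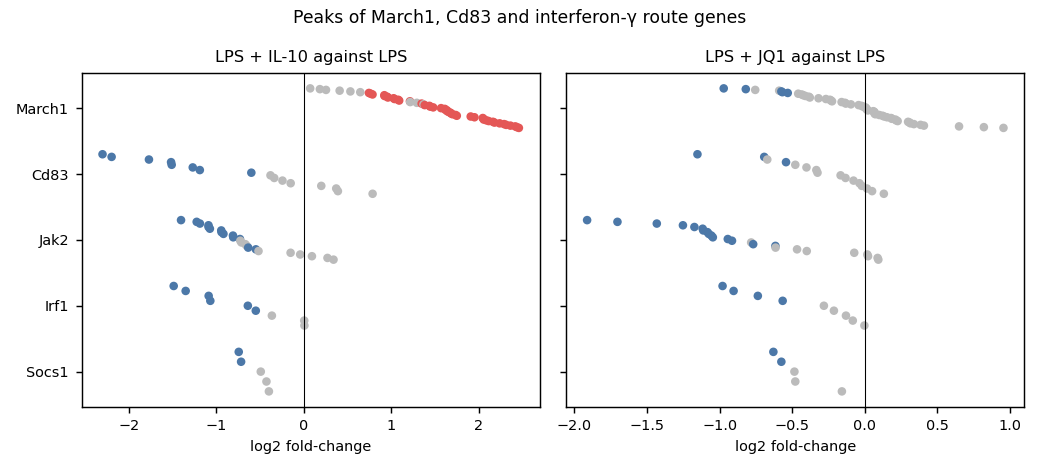
Log2 fold-change (horizontal axis) of the peaks of March1, Cd83, Jak2, Irf1 and Socs1, 1 point per peak, for LPS + IL-10 against LPS and LPS + (+)-JQ1 against LPS, with called peaks in red (higher) or blue (lower) and others in grey. March1 peaks lie above 0 in the LPS + IL-10 comparison (median 1.57, from 0.07 to 2.46) and the Cd83 peaks there reach -2.30.

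Letters of other factors were compared between the 22 member peaks higher with LPS outside the Cd74 window and the 59 other members outside it. The Y box core occurred in the central window of 12 of 22 and 19 of 59, the X1 site in 6 and 14, AP-1 letters (TGANTCA) in 3 and 6, PU.1 letters (GAGGAAG) in 3 and 13, and κB letters (GGGANTTCC) in 3 and 1. Over all 194280 central windows of 300 bases the shares were 31.7% for the core, 15.9% for the X1 site, 12.1% for AP-1, 15.7% for PU.1 and 1.33% for κB letters. The counts are small and are given as a description.

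Across the 18 libraries, the promoter peaks of other genes most like the H2-Ab1 5′ end peak in log2 CPM were those of Ly6e (Pearson's r = 0.93), Gm16754 (0.913) and Edn1 (0.91), among 17581 candidates with a mean normalized count of at least 100. For the Ciita peak at +8.4 kb the closest were Epb4.1 (0.775), Lzts2 (0.745) and Ccdc116 (0.734). The libraries share groups, lanes and depth, so these likenesses are descriptions.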

How the data were processed

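The unit of the deposited table was counts: per the labels and the study's methods, the authors aligned paired-end reads to mm9 with Bowtie2 within the PEPATAC pipeline, called peaks on each sample with MACS2, and counted each sample over the union of peaks. ChIPseeker classed peaks as promoter or distal. The counting tool, any shift of reads for the transposase and the handling of duplicate fragments are not given in the sources used here. The deposited table had 6 further columns of counts, named for JQ1neg with and without LPS, that matched no labelled sample and were not used.

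All 18 libraries in 6 groups of 3 were fitted together with edgeR 4.0.16 (TMM scaling, filterByExpr, quasi-likelihood test, Benjamini-Hochberg adjustment over 194230 peaks) in R 4.3.3. A call needed an adjusted p under 0.05 and an absolute log2 fold-change over 0.5. DESeq2 1.42.0 was an alternative, as were other scalings, no filter, other thresholds and window sizes, sequencing lane or replicate number as a block, the compared groups alone, and each replicate left out. The fits were tested on simulated data. Replicates of 1 group differed by more than sampling noise in every pair, with a mean chi-square per peak of 1.92 to 4.02. The sources give 3 mice and matched samples but do not tie a replicate number to a mouse. Same-numbered libraries were treated as possibly paired, and the mean correlation of their deviations from the group means was 0.00573 over 45 same-number pairs and -0.00286 over 90 others.

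The gene windows, lists and tests were chosen with earlier results of these data known. Named peaks were those over member 5′ ends, the peak with the highest mean in each window, and up to 3 called peaks per direction and comparison (2 for interactions) with the largest fold-change and a mean normalized count of at least 20. The peaks of H2-Ab1 1.4 and 5.1 kb upstream, of H2-DMb1 2.6 kb upstream, of H2-Eb1 at +7.4 kb and of Ciita at +15.4, +41.2 and +42.6 kb, and the March1, Cd83, Ctss and Jak2 peaks, were named after their values were seen. Sequences were read from mm9. Some genes of the lists are not reported here.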

Additional observations from a re-analysis of the deposited data

Results flagged for a closer look

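The following member peaks were flagged because their LPS difference with a pretreatment was different from that without it, by edgeR's interaction test at an adjusted p under 0.05. Values are interaction log2 fold-changes, negative where the LPS difference was smaller with the agent, and no explanation was tested.

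With (+)-JQ1 there were 3. The H2-Ob peak at +10.7 kb over Gm20506 gave -1.3 ± 0.22 (edgeR adjusted p = 0.00011), as its mean went from 119.1 to 465.2 normalized counts with LPS and from 176.7 to 281.7 with LPS after (+)-JQ1. The peak 5.1 kb upstream of H2-Ab1 gave -0.7 ± 0.2 (edgeR adjusted p = 0.029), and the Cd74 5′ end peak gave -0.86 ± 0.24 (edgeR adjusted p = 0.023). Without replicate 2 in all groups none of these was called, the H2-Ob value being the one that was lost under that alternative alone. The Cd74 call was lost in 10 alternatives, among them total counts, loess offsets, the removal of replicate 1 or 2 from all groups and that of unstimulated replicate 1 or 2, (+)-JQ1 replicate 1 or 3, LPS replicate 1 or LPS + (+)-JQ1 replicate 3. The count of calls was 1 without unstimulated replicate 1 or 2, (+)-JQ1 replicate 1, LPS replicate 1 or LPS + (+)-JQ1 replicate 3, and 7 without unstimulated replicate 3.

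With IL-10 there were 10. In the Cd74 window the 5′ end peak gave -1.13 ± 0.23 (edgeR adjusted p = 0.00047). Around H2-Aa and H2-Ab1, the peak 8.5 kb upstream of H2-Aa gave -0.97 ± 0.22, the one 3.8 kb upstream of H2-Aa -0.84 ± 0.26 and the one 5.1 kb upstream of H2-Ab1 -0.92 ± 0.2. In Ciita the +18.3-kb peak gave -0.98 ± 0.28 and the +41.2-kb peak -0.82 ± 0.24. H2-Ob +10.7 kb gave -0.75 ± 0.22 and H2-Ob +0.8 kb -0.66 ± 0.22, H2-Oa +11.4 kb gave -0.73 ± 0.19, and the peak at +7.9 kb from H2-DMa over the 5′ end of H2-DMb2 gave -0.69 ± 0.2. The count of calls was 6 without unstimulated replicate 2, 16 without unstimulated replicate 3, 5 without LPS replicate 1, 5 without LPS + IL-10 replicate 2, and 3 and 1 when replicates 1 or 2 were left out of all groups. The Ciita +18.3-kb interaction was lost with total counts, without replicate 2 or 3 in all groups and without IL-10 replicate 1, LPS replicate 1 or LPS + IL-10 replicate 2. The unstimulated libraries, which enter every interaction, had 29.0 to 35.2% of their counts in the strongest 5% of peaks, against 35.6 to 42.2% in the (+)-JQ1, IL-10, LPS and LPS + (+)-JQ1 groups and 31.9 to 34.4% in LPS + IL-10, and the part of that difference in these values was not tested.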

How the results depend on the processing

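Of the named peak results under alternatives other than leaving out replicates, 603 kept their direction and their side of the threshold and 29 lost the call, and with replicates left out 647 did so, 85 lost the call and 3 passed it newly, with none reversed. Calls among member peaks moved by more than 1.5 times as follows, the cause being untested except where fewer or more peaks were counted. With total counts they were 17 (16 higher and 1 lower) instead of 26 for LPS against unstimulated, 8 instead of 4 for (+)-JQ1 against unstimulated, 1 instead of 3 for the (+)-JQ1 interaction and 5 instead of 10 for the IL-10 interaction. With loess offsets they were 1 for (+)-JQ1 and 5 instead of 9 for IL-10 against unstimulated, and 1 and 4 for the interactions. DESeq2 size factors gave 8 for (+)-JQ1 against unstimulated, and DESeq2 itself 7 there and 5 for the (+)-JQ1 interaction. At an adjusted p under 0.01 the interactions gave 1 and 4. With no fold-change limit there were 10 for (+)-JQ1 against unstimulated and 5 instead of 3 for LPS + IL-10 against LPS. With the gene bodies alone, which hold fewer peaks, the counts were 15 for LPS, 2 for (+)-JQ1 and 4 for IL-10 against unstimulated, 5 instead of 8 for LPS + (+)-JQ1 against LPS, 5 instead of 8 between the pretreatments and 5 for the IL-10 interaction. With 25 kb on each side they were 40, 11, 16, 8 and 14 for LPS against unstimulated, (+)-JQ1 against unstimulated, LPS + (+)-JQ1 against LPS, LPS + IL-10 against LPS and between the pretreatments, and 5 for the (+)-JQ1 interaction.

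With 1 replicate or library left out, the counts ranged from 20 to 27 for LPS, 1 to 13 for (+)-JQ1 and 1 to 15 for IL-10 against unstimulated, 3 to 8 for LPS + (+)-JQ1 against LPS, 1 to 3 for LPS + IL-10 against LPS, 4 to 7 between the pretreatments, 0 to 7 for the (+)-JQ1 interaction and 1 to 16 for the IL-10 interaction. For the pathway lists, whose alternatives were chosen after seeing the data, they ranged from 84 to 117 around 112 calls for LPS, from 18 to 45 around 45 for LPS + (+)-JQ1 and from 68 to 94 around 94 for LPS + IL-10. With the replicate number as a block the member counts were 26, 4, 9, 7, 3, 8, 3 and 11 in the order of the report, and besides the H2-Ob +8.4-kb call it changed no other call of a member peak than the IL-10 interaction at H2-DMa +2.9 kb (0.87, edgeR adjusted p = 0.056 without and 0.049 with the block). Peaks under 20 mean normalized counts, 16 of the 89, leave little power at this depth.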
